A study of Mus musculus with 6 samples.

Results

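The Fanconi anemia (FA) core complex genes described here are the 10 genes *Fanca*, *Fancb*, *Fancc*, *Fance*, *Fancf*, *Fancg*, *Fancl*, *Fancm*, *Faap100* and *Faap24*. They were taken by mouse gene symbol, as known members of the complex, from the 23837 rows of the array table that could be named, and all 10 were measured, each on 1 row. The table holds primordial germ cells (PGCs) of male embryos at E13.5, sorted by the green fluorescence of the OG2 reporter, in which the distal enhancer of *Oct3/4* drives EGFP. Both groups carried this reporter on the background labelled og2.fvb. There were 3 samples of genotype fancg +/+, called WT, and 3 of genotype fancg -/-, called samples labelled *Fancg*-/-, each made from 10000 PGCs pooled from at least 5 embryos. Genotyping recognised the mutant allele by its *Pgk-hygromycin* sequence. Signals are log2 values normalized by RMA on Affymetrix Mouse Gene 2.0 ST arrays, so that a difference of 1 is a doubling.

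The FA pathway repairs crosslinks between the strands of DNA at stalled replication forks. FANCM with FAAP24 anchors the core complex to the damaged fork, the core complex acts as a ubiquitin ligase, and its substrates are FANCD2 and FANCI, which then recruit nucleases and recombination proteins. Within the complex, FANCA and FANCG form one module, FANCC, FANCE and FANCF form the module that holds the substrate, and FANCB, FAAP100 and the ligase subunit FANCL form the catalytic module. Mice that lack core complex subunits lose germ cells before birth, and a *Fancl* mutation was first known in mouse as germ cell deficient.

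In E13.5 PGCs the groups overlapped for 7 of the 10 core complex transcripts and did not overlap for 3. The median size of the log2 difference was 0.0748 over the 10, beside 0.110 over all genes. *Fancg* itself and *Faap24* were measured higher in every sample labelled *Fancg*-/- than in every WT sample, and *Fancc* was measured lower in every labelled sample. The fold was 1.42 for *Fancg*, 1.21 for *Faap24* and 1.38 in the lower direction for *Fancc*. None of the 10 passed the adjustment over all named genes (limma with Benjamini-Hochberg adjustment, smallest adjusted p = 0.163), and the same test called 0% of all 23837 genes. At an unadjusted p under 0.05 from limma, 2 members were higher, where 6.23% of all genes were, and 1 was lower, where 6.17% of all genes were. By the methods' test, an equal-variance test of each gene, *Fancc* and *Faap24* had a p under 0.05, as did 10.1% of all genes. Groups did not overlap in 9.45% of all genes in the higher direction and in 8.45% in the lower. The median log2 difference of the 10 was -0.0065, beside 0.011 over all genes, and 5 of the 10 lay above 0, where 52.9% of all genes did.

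**Figure D1:**
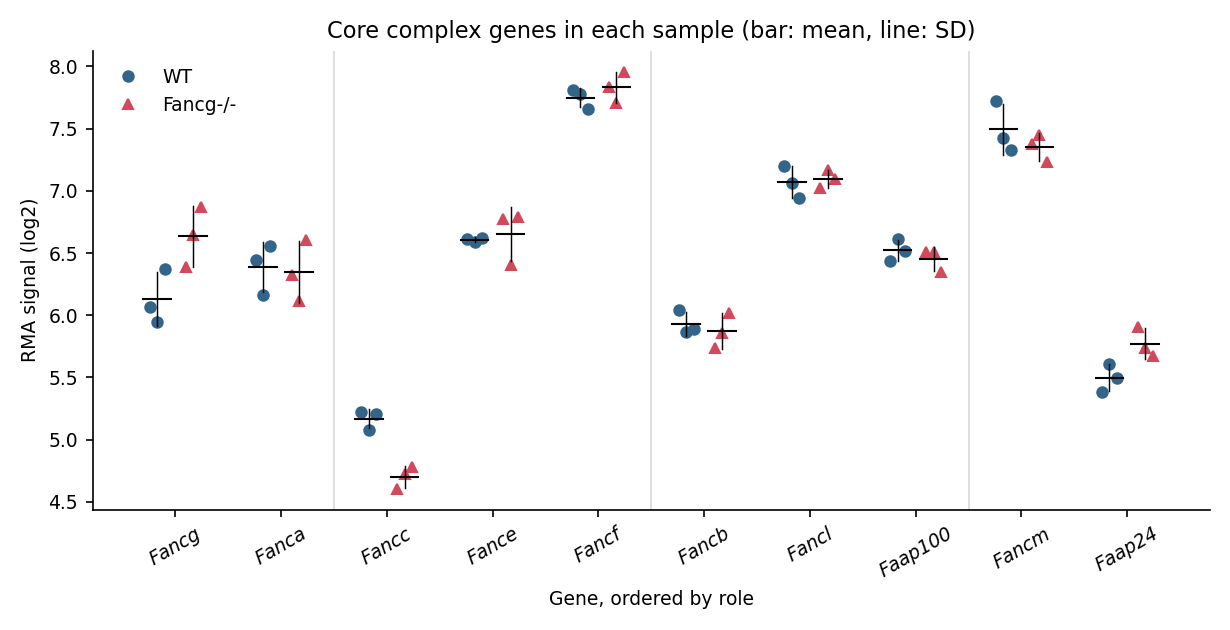
RMA signal (log2, vertical axis) of the 10 core complex genes in each WT sample (circles) and each sample labelled *Fancg*-/- (triangles), with the group mean (bar) and SD (line), n = 3 per group. The groups are apart for *Fancg*, *Fancc* and *Faap24* and overlap for the other 7 genes. The heights of different genes come from different probes and are not compared.

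The promoters of the 3 members whose groups did not overlap are shown first, since these are the transcripts the results turn on. Each is the 250 bases before the transcription start in the RefSeq table of build GRCm38.p6, with every CG pair in capitals. The *Fancg* promoter lies on the minus strand at chr4:43010302-43010551, that of *Fancc* on the minus strand at chr13:63431746-63431995, and that of *Faap24* on the minus strand at chr7:35396768-35397017.
Fancg: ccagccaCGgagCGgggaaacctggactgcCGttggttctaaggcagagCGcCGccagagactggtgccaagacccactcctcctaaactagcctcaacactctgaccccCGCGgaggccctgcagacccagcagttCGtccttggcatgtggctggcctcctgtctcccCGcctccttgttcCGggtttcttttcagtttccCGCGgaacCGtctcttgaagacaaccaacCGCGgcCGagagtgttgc
Fancc: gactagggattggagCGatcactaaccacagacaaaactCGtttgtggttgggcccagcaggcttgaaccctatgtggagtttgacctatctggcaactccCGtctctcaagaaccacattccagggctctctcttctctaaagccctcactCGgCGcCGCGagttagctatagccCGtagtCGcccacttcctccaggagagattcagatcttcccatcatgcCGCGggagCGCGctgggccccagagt
Faap24: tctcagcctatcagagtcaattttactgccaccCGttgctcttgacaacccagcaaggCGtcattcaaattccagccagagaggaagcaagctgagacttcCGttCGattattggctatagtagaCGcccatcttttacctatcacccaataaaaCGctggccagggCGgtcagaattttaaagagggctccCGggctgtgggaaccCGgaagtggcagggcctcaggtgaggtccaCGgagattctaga

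These windows held 16 CG pairs in *Fancg*, 13 in *Fancc* and 10 in *Faap24*. Promoters of all 10 members were found in the table, and 9 of them held more CG pairs than the median of 6 over all 32851 windows of that length. The range was from 10 to 25 in these 9, and *Fancl* had 2. The CCAAT box (CCAAT, either strand) was in 7 of the 10 windows and in 33.8% of all windows. It was found in *Fancc* and *Faap24* and not in *Fancg*. The GC box (GGGCGG) was in 6 members and in 32.7% of windows, and the ETS-type motif CCGGAAG, found in *Faap24* and *Fance*, was in 6.91%. The E-box CACGTG (6.02% of windows), TATAAA (12.4%), the E2F-type motifs TTTCGCGC (0.256%) and TTTGGCGC (0.417%) and the NRF1 motif (0.782%) were in none of the 10. The 8 motifs were searched on both strands, and a match can overlap another. The *Fancg* and *Fancl* windows held none of the 8 as exact strings. Other forms of these motifs were not searched, and the *Fancg* window holds TTTCCCGC, a close variant of the E2F-type strings.

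*Fancg* (Entrez gene 60534, chromosome 4) encodes the adaptor that binds FANCA, and is the gene targeted in these mice. Its signal was 6.07, 5.95 and 6.37 in WT samples 1 to 3 and 6.38, 6.65 and 6.87 in labelled samples 1 to 3. The groups were apart by 0.015, with WT sample 3 next to labelled sample 1. The log2 difference was 0.51 (standard error 0.16, 95% interval 0.14 to 0.87, adjusted p = 0.275 from limma), and by this difference *Fancg* ranked 344 from the highest of 23837 genes. The exact two-sided permutation test gave p = 0.1, the smallest that 3 samples against 3 allow. The place of its probes relative to the altered part of the gene was not known, so this row does not check the genotype labels, and each direction in the text rests on those labels.

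Its partner *Fanca* (Entrez gene 14087), the subunit that FANCG stabilises, was measured at 6.44, 6.16 and 6.55 in WT samples and at 6.33, 6.11 and 6.60 in labelled samples. Labelled samples lay on both sides of the WT range. The log2 difference was -0.041 (standard error 0.15, adjusted p = 0.945 from limma), with a 95% interval of -0.40 to 0.31. In both groups, sample 3 was the highest for *Fanca* and for *Fancg*. The samples numbered 3 also had the lowest signal of the globin genes *Hbb-y* and *Hba-x* in their group. This did not hold among WT samples for the globin gene *Hbb-bh1*, whose mean signal of 2.69 lay at percentile 9.64 of all genes. Nor did it hold in either group for the erythroid marker *Alas2*. *Alas2* was 4.69, 4.59 and 4.61 in WT samples and 4.11, 4.07 and 4.31 in labelled samples. Its log2 difference was -0.47 (adjusted p = 0.168 from limma), with every labelled sample lower. *Hbb-y* was 8.63, 8.56 and 5.19 in WT samples and 10.33, 8.38 and 3.77 in labelled samples. With the mean of the erythroid markers as a covariate, chosen after seeing the data, the *Fancg* difference was 0.51 (standard error 0.10, adjusted p = 0.203 from limma). The mean of *Fanca* and *Fancg*, each centred on its mean of all 6 samples, was -0.12, -0.32 and 0.088 in WT samples and -0.019, 0.0048 and 0.36 in labelled samples, so that the groups overlapped for this module.

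*Fancc* (Entrez gene 14088, chromosome 13), which with FANCE and FANCF forms the module that binds the substrate, was the member with the smallest p. Its signal was 5.22, 5.08 and 5.21 in WT samples and 4.61, 4.72 and 4.78 in labelled samples. The lowest WT sample lay 0.30 above the highest labelled sample, the widest gap among the 10. The log2 difference was -0.47 (standard error 0.092, 95% interval -0.68 to -0.25, adjusted p = 0.163 from limma), and leaving out any 1 sample gave -0.51 to -0.42.

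For both partners of *Fancc* the groups overlapped, and the differences between members were not tested. *Fance* (Entrez gene 72775), which contacts FANCD2, was 6.61, 6.59 and 6.62 in WT samples and 6.77, 6.40 and 6.79 in labelled samples. The SD (n = 3) was 0.017 in the WT group and 0.22 in labelled samples, which fell on both sides of the WT samples. *Fancf* (Entrez gene 100040608), which links the module to the rest of the complex, was 7.81, 7.78 and 7.66 in WT samples and 7.84, 7.70 and 7.96 in labelled samples. The log2 differences were 0.045 for *Fance* (standard error 0.12) and 0.083 for *Fancf* (standard error 0.099), with adjusted p of 0.92 and 0.795 from limma. The mean of the 3 genes ran from 0.030 to 0.095 in WT samples and from -0.18 to 0.054 in labelled samples, and the groups overlapped.

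In the catalytic module the groups overlapped for all 3 genes. *Fancl* (Entrez gene 67030), the RING ubiquitin ligase, was 7.20, 7.06 and 6.94 in WT samples and 7.03, 7.17 and 7.09 in labelled samples. Labelled samples lay inside the WT range, and the log2 difference was 0.028 (standard error 0.099, adjusted p = 0.941 from limma). Its 95% interval, -0.20 to 0.26, spans folds from 0.869 to 1.20. *Fancb* (Entrez gene 237211), which is on the X chromosome, was 6.04, 5.87 and 5.89 in WT samples and 5.74, 5.86 and 6.02 in labelled samples, a difference of -0.060 (95% interval -0.30 to 0.19). *Faap100* (Entrez gene 71885), which holds FANCB and FANCL together, was 6.44, 6.61 and 6.52 in WT samples and 6.51, 6.51 and 6.34 in labelled samples, a difference of -0.067 (95% interval -0.29 to 0.15). The means of the 3 genes differed by -0.033 between the groups, which overlapped.

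The anchor is formed by the products of *Fancm* and *Faap24*. *Fancm* (Entrez gene 104806), a DNA translocase, was 7.72, 7.42 and 7.33 in WT samples and 7.38, 7.45 and 7.23 in labelled samples. WT sample 1 stood above the other 5, and the log2 difference of -0.14 (standard error 0.12, adjusted p = 0.699 from limma) was -0.025 without it. With the mean of the Sertoli or the Leydig cell markers as a covariate it was -0.41 (standard error 0.16) or -0.90 (standard error 0.29). The adjusted p was 0.76 and 0.94 from limma. These marker means themselves followed the group, with correlations of -0.765 and -0.949. *Faap24* (Entrez gene 101831, chromosome 7), the DNA-binding partner of FANCM, was 5.39, 5.61 and 5.50 in WT samples and 5.91, 5.74 and 5.67 in labelled samples. The groups did not overlap, with a gap of 0.065. The log2 difference was 0.27 (standard error 0.10, 95% interval 0.035 to 0.51, adjusted p = 0.349 from limma), and it ran from 0.21 to 0.33 when 1 sample was left out. Its unadjusted p of 0.0297 from limma was 0.0518 to 0.095 without WT sample 1, WT sample 3, labelled sample 1 or labelled sample 2.

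**Figure D2:**
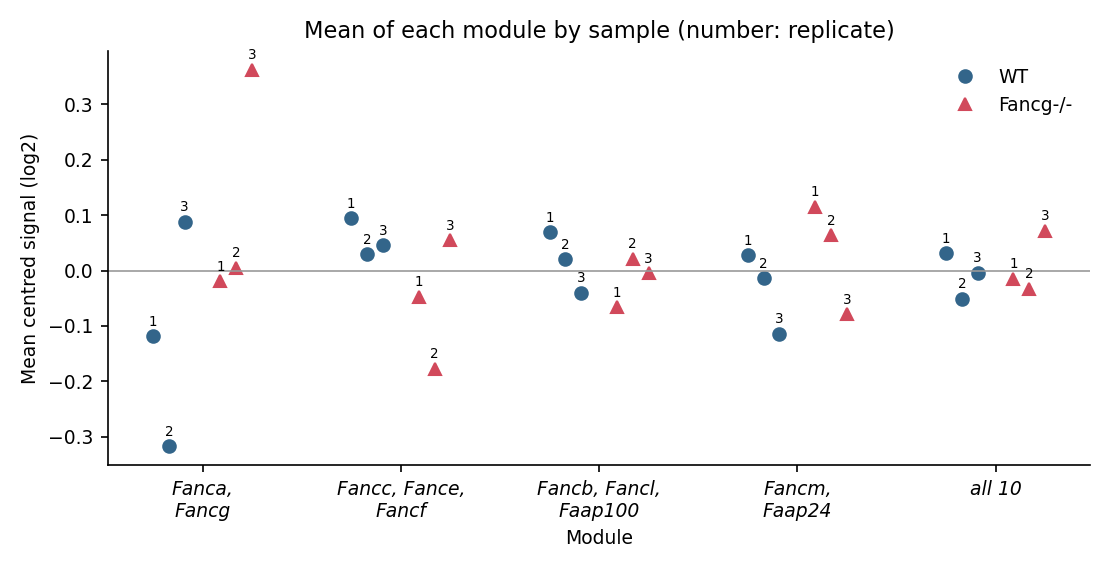
Mean of the centred log2 signals (vertical axis) of each core complex module and of all 10 genes, in WT samples (circles) and samples labelled *Fancg*-/- (triangles), with the replicate number above each point. The groups overlap in every module and over all 10 genes. In the *Fanca* and *Fancg* module, sample 3 is highest in both groups, at 0.088 and 0.36.

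Over all 10 genes the mean of the centred signals was 0.031, -0.051 and -0.0036 in WT samples and -0.015, -0.033 and 0.072 in labelled samples. The groups overlapped, and the difference of 0.016 holds the opposite differences of *Fancg* and *Fancc*. For the 7 members whose groups overlapped, the 95% interval reached from 0.22 in *Faap100* to 0.35 in *Fanca* on either side of the estimate. Differences within that reach could not be told from 0 with these arrays. The reach is before adjustment for the number of genes. The larger differences of *Fancg* (0.51) and *Fancc* (-0.47) were not called after it.

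Other genes of the FA pathway were compared in the same fit. Of 28 such genes, 0 were called, 0 had an unadjusted p under 0.05 from limma, where 12.4% of all genes did, and the groups overlapped in all 28, where they did not overlap in 17.9% of all genes. Their median log2 difference was 0.0049, with 15 above 0 and 13 below. Of the 7 factors that join the core complex or bridge it to the BLM helicase, *Faap20*, the partner of FANCA, had a difference of 0.16 (standard error 0.17). Its SD (n = 3) was 0.35 in labelled samples and 0.048 in the WT group. The differences of these 7 ran from -0.088 to 0.31 and had a median of 0.094. No single gene of the 7 had groups apart. Their mean, centred per gene, ran from -0.086 to -0.021 in WT samples and from 0.018 to 0.076 in labelled samples. The means of the other pathway lists below, and of all 28 genes, overlapped between the groups. How often the mean of a list is apart in this way was not tested. The upper end of the 7 differences was *Cenpx*, named here after its values were seen, which encodes a histone-fold partner of FANCM (adjusted p = 0.44 from limma).

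Among the 5 genes of the substrate and its ubiquitin cycle, *Fancd2*, the substrate itself, was 7.86 ± 0.040 in the WT group and 7.93 ± 0.082 in labelled samples (mean and SD, n = 3). The difference of 0.068 had a 95% interval of -0.13 to 0.27 and an adjusted p of 0.809 from limma. The 5 genes ran from -0.10 to 0.23. The 7 nuclease and scaffold genes ran from -0.17 to 0.094, with the nuclease gene *Fan1* at -0.017 (standard error 0.11). The 9 recombination and bypass genes ran from -0.20 to 0.24, with *Brca1*, which acts in homologous recombination, at 0.068 (standard error 0.11). In size, the differences of *Fancg* and *Fancc* lay outside the range of all 28.

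**Figure D3:**
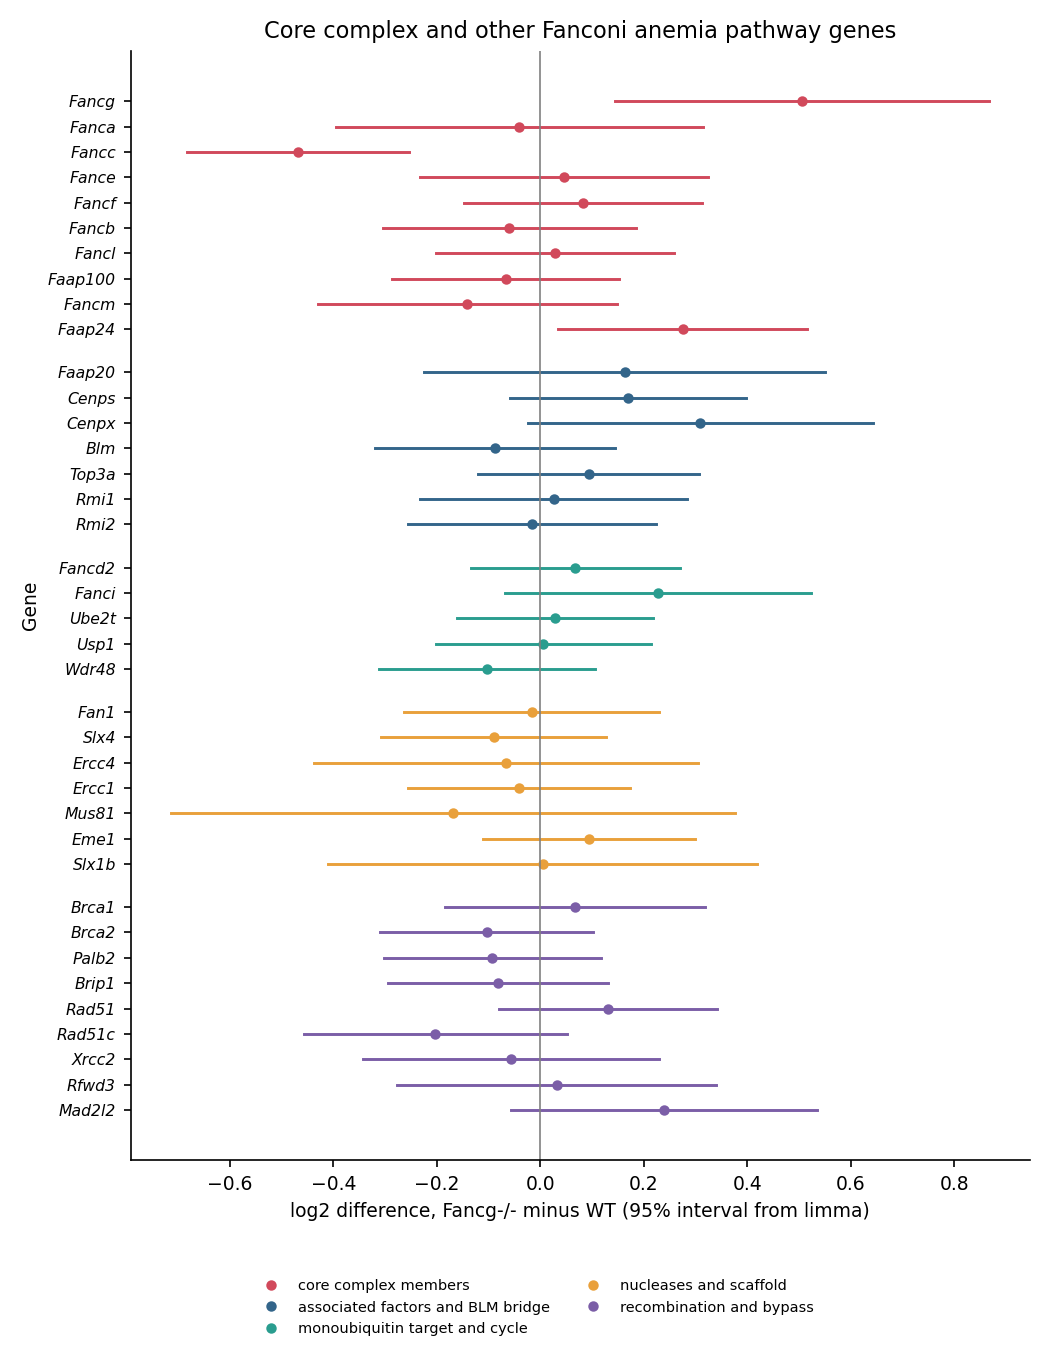
log2 difference (horizontal axis, *Fancg*-/- minus WT) of the 10 core complex genes and of 28 other FA pathway genes in 4 groups, with the 95% interval from limma, n = 3 per group. The interval leaves out 0 for *Fancg*, *Fancc* and *Faap24* and holds 0 for every other gene drawn, before any adjustment for the number of genes.

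Because the mutant allele holds foreign sequence, the genes beside *Fancg* were listed in their order on chromosome 4, taken from RefSeq. The nearest gene on one side, *Vcp*, an ATPase that extracts ubiquitinated proteins, had a log2 difference of 0.044 (standard error 0.083). The nearest on the other side, *Pigo*, an enzyme of GPI anchor synthesis, was 6.82, 6.82 and 7.03 in WT samples and 6.73, 6.63 and 6.74 in labelled samples. Every labelled sample was below every WT sample by this measure, at a difference of -0.19 (standard error 0.096, adjusted p = 0.483 from limma). *Stoml2* next to it had 0.066 (standard error 0.11) and *Fam214b* had -0.11 (standard error 0.17).

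Of the 10 neighbours, 1 had an unadjusted p under 0.05 from limma, beside 12.4% of all genes, and 3 had groups that did not overlap, beside 17.9% of all genes. The first was *Unc13b*, which encodes a protein of synaptic vesicle priming and lies 4 measured genes away on the side of *Pigo*. It was 6.51, 6.64 and 6.83 in WT samples and 6.01, 6.17 and 6.24 in labelled samples, and the groups did not overlap. The log2 difference was -0.52 (standard error 0.11, 95% interval -0.79 to -0.26, adjusted p = 0.173 from limma), or 1.44-fold lower. On the side of *Vcp*, *1700022I11Rik* had -0.038, *Dnajb5* 0.16, *Phf24* 0.028 and *Fam205c* 0.25. The last gene on the side of *Pigo*, *Atp8b5*, had 0.34 (standard error 0.19). *Fam205c* was higher in each labelled sample, and none of the 10 passed the adjustment.

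**Figure D4:**
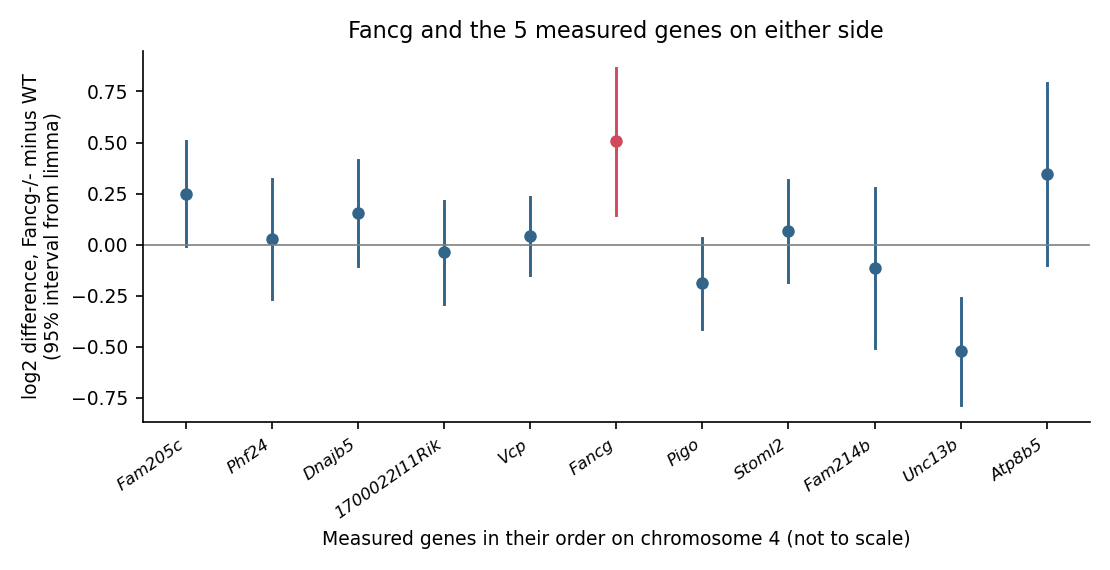
log2 difference (vertical axis, *Fancg*-/- minus WT) of *Fancg* and the 5 measured genes on either side in their order on chromosome 4 (not to scale), with the 95% interval from limma, n = 3 per group. *Fancg* is at 0.51 and *Unc13b* at -0.52, and the intervals of the other 9 genes hold 0.

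The genes whose profile over the 6 samples was most like that of *Fancg* were *Lasp1*, *Fbp1* and *Rffl*, out of 15891 searched. The root mean square difference between centred log2 values was 0.064, 0.071 and 0.075 for these 3. *Lasp1* encodes an actin-binding adaptor, *Fbp1* an enzyme of gluconeogenesis and *Rffl* a ubiquitin ligase. *Rffl* was 7.51, 7.33 and 7.57 in WT samples and 7.76, 7.96 and 8.21 in labelled samples. The genes most like *Fancc* were *Kdm7a*, a histone demethylase gene, at a root mean square difference of 0.043, *Rplp0*, a ribosomal stalk protein gene, at 0.048, and *Taok1*, a kinase gene, at 0.049. *Rplp0* was 9.27, 9.18 and 9.31 in WT samples and 8.77, 8.87 and 8.81 in labelled samples. Likeness of this kind over 6 samples was not tested.

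All 8 germ cell markers were measured, with mean signals from 8.05 to 12.08, which come from different probes and do not rank their expression. Their median log2 difference was -0.028, and the groups overlapped for 6 of the 8, where they did not overlap in 17.9% of all genes. *Nanos3*, an RNA-binding germ cell factor, was higher in each labelled sample by 0.44 (adjusted p = 0.333 from limma), and *Dazl*, another, was lower in each by a difference of -0.097 (adjusted p = 0.678 from limma). Among the somatic lists, the Leydig cell markers were apart gene by gene. All 5 measured Leydig cell markers were lower in each labelled sample (median -1.55), where 8.45% of all genes were. None of the 5 passed the adjustment (smallest adjusted p = 0.114 from limma). The mean of the list ran from 0.49 to 1.12 in WT samples and from -1.24 to -0.51 in labelled samples. In a sorted bulk sample, fewer cells of a type and less RNA per cell cannot be told apart. For the 7 Sertoli cell markers the median was -0.40, 0 had an unadjusted p under 0.05 from limma and the groups overlapped for 6, while the mean of the list ran from 0.041 to 0.40 in WT samples and from -0.46 to 0.019 in labelled samples. Medians were -0.28 for the 6 interstitial and stromal markers, 0.35 for the 6 endothelial, 0.023 for the 4 macrophage and 0.017 for the 4 measured erythroid markers. The list means of the samples overlapped between the groups for these 4 lists. Gene by gene, limma gave p below 0.05 before adjustment for 3 interstitial and stromal markers, with every labelled sample below WT. It did so for 3 endothelial markers, *Pecam1*, *Tie1* and *Tek*, all with a higher mean, of which only *Tie1* had groups apart. *Pecam1* lay at percentile 97.1 of all genes by mean signal, and which cells its signal came from was not tested. All 6 endothelial differences lay above 0, where 52.9% of all genes did. The macrophage list had 1 such marker in each direction, and the erythroid list had 1, *Alas2*. Of all genes 12.4% had such a p, and no marker of these 4 lists passed the adjustment. Of the 20 S phase genes, 16 were above 0, with a median of 0.072. At an unadjusted p under 0.05 from limma, 4 of the 20 were higher, where 6.23% of all genes were, and 1 was lower, where 6.17% were, and none passed the adjustment. The largest difference was 0.50 in *Ccne1*, a cyclin of S phase entry (adjusted p = 0.153 from limma), and the mean of the list overlapped between the groups. *Nanos3*, *Dazl*, *Pecam1*, *Tie1*, *Tek*, *Ccne1* and *Alas2* were chosen for naming after their values were seen. The part of the S phase genes in the members' differences was not tested. With the mean of the Leydig cell markers as a covariate, whose correlation with the group was -0.949, *Fancc* had a difference of -0.48 (standard error 0.31), *Fancg* 0.98 (standard error 0.49) and *Faap24* 0.40 (standard error 0.35). With the mean of the Sertoli cell markers, whose correlation with the group was -0.765, these were -0.44, 0.75 and 0.29. The part of other cell types in these differences was not tested beyond these fits.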

How the data were processed

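The authors hybridised biotinylated cDNA of 3 WT and 3 *Fancg*-/- pools, prepared by the Nugen Ovation PicoV2 protocol, to 1-colour arrays and deposited log2 values after RMA, on rows that each stand for an Entrez gene. The submitters' processing notes name RMA and Partek. No version, probe position or genome build is given in the sources used here. Of 24479 rows, 23837 were named by Entrez gene through RefSeq (GRCm38.p6) or the platform annotation and tested. Sample medians lay between 4.68 and 4.75, and samples correlated at 0.989 to 0.994, so that none was a copy of another. Arrays have no read depth, and their number limits the precision.

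Groups came from the sample titles. Differences, *Fancg*-/- minus WT, were fitted with limma 3.58.1 (lmFit and eBayes, no block) in R 4.3.3, tested beforehand on simulated data, with p adjusted by Benjamini-Hochberg across every named gene and calls at an adjusted p under 0.05. Replicates were separate pools of embryos. The sample titles do not say whether samples of equal replicate number were paired, and the reported fit did not pair them. The members and lists were chosen with earlier results of these data known. Named were the members, the first gene of each pathway list and any with an unadjusted p under 0.05, the genes beside *Fancg*, and for *Fancg* and *Fancc* the 3 most alike profiles among genes above the lowest 25% by mean, without predicted genes and small RNAs. *Insl3* and *Hba-a1* of the marker lists were not found. Alternatives were the methods' test (an equal-variance test per gene), a trend with a robust prior, array weights, normalization, centring, filters, all rows, the replicate block, marker covariates and leaving out each sample. Background correction was not varied.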

Additional observations from a re-analysis of the deposited data

How the results depend on the processing

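No core complex gene was called under any of 18 alternatives. In 6 of them the estimate is that of the reported fit by construction. In the other 12 *Fancg*, *Fancc*, *Faap24*, *Fancf*, *Fancm* and *Faap100* kept their direction, with *Fancf* from 0.021 to 0.26 and *Faap100* from -0.13 to -0.012. *Fancg* ran from 0.39 to 0.98 and *Fancc* from -0.51 to -0.42. The directions of the other 4, all near 0 in the reported fit, were not stable. *Fanca* turned to 0.29 with the Sertoli cell markers as a covariate, 0.59 with the Leydig cell markers, 0.043 without WT sample 3 and 0.077 without *Fancg*-/- sample 2. *Fancl* turned to -0.12, -0.38, -0.035 and -0.0082 under the same 4 settings. *Fancb* turned to 0.0076 without *Fancg*-/- sample 1, and *Fance* to -0.015 without sample 1 and -0.021 without sample 3 of that group. With the Sertoli and the Leydig cell markers as a covariate *Fance* was 0.28 and 0.58. Leaving out 1 sample gave -0.17 to 0.077 for *Fanca*, -0.13 to 0.0076 for *Fancb*, -0.021 to 0.17 for *Fance* and -0.035 to 0.095 for *Fancl*.

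Against 2 members higher at an unadjusted p under 0.05, there was 1 by the methods' test, with an intensity trend and robust prior, and with the Sertoli cell markers, and 0 with the Leydig cell markers. Lower members numbered 2 with the Sertoli cell markers. Leaving out each sample gave 1 to 2 higher and 1 lower member, and 2 to 4 members with labelled samples all above WT and 1 to 2 all below. Over all genes tested, an unadjusted p under 0.05 was met by 857 higher and 699 lower genes with the Sertoli and by 674 and 540 with the Leydig cell markers, against 1486 and 1470. Among genes above the median, groups did not overlap in the higher direction in 1412 of 11918, against 2252 of all 23837. Leaving out 1 sample gave 0 to 3 called genes (3 without WT sample 1), 3230 to 4091 genes all above WT and 2900 to 3457 all below. Groups that are apart stay apart when a sample is left out, so such counts, of members or of all genes, can only stay or rise. They are not comparable with those of all 6 arrays. With the replicate block, 1 member was higher at an unadjusted p under 0.05 and 0 were called, and same-numbered samples had deviations from their group means that correlated at -0.14, -0.11 and 0.030. The causes of the other changes were not tested. With 3 arrays a group, precision is limited, and standard errors of the members ran from 0.092 to 0.16.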
